A study of Rattus norvegicus with 16 samples.

Results

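The dorsal root ganglia (DRG) of the injured side were compared with those of the uninjured side in young rats after spared nerve injury (SNI), an operation in which the tibial and common peroneal branches of the sciatic nerve are tied and cut and the sural branch is left whole. Of the 16 arrays in the series, 4 belonged to this comparison: 2 arrays of the Young Ipsilateral group and 2 of the Young Contralateral group, across 31042 Affy_IDs (the probe sets of an Affymetrix rat expression array, after 57 control probe sets were dropped). All 4 came from Sprague-Dawley pups operated at 10 days of age, with L4 and L5 ganglia collected 7 days later, at 17 days, and each array held RNA pooled from 4 animals, or 8 ganglia. The sex of the pups was not given, and the study had removed 1 further pool from each of these 2 groups as an outlier before deposit. The contralateral ganglia were from operated animals, so they share the anaesthesia, the wound and the injury on the other side. The remaining arrays were 3 of Young Sham ganglia (same age and time, nerves exposed but not cut) and 9 from male rats operated at 2 months (3 each of Adult Sham, Adult Contralateral and Adult Ipsilateral, pooled from 3 animals each). They entered the fit that estimated the spread, and are quoted where they place a young value.

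Sensory neurons whose axons are cut change their transcription within days: they switch on the transcription factors Atf3 and Sox11, the neuropeptides Gal, Npy and Vip and the growth-associated genes Sprr1a and Gap43. Around them the resident macrophages, which carry the receptor Csf1r and present peptides on major histocompatibility complex (MHC) class II molecules, increase in number or activity. The comparison asks which of these changes were present in the ganglia of young rats, which do not show the lasting pain behaviour that the same lesion gives in adults. In pooled ganglia, more cells of a type cannot be told apart from more RNA per cell.

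Expression values are on the log2 GC-RMA scale, on which 1 unit is a doubling and values of about 2 to 3 are the floor of the array. On 3 of the 4 arrays, transcripts of tissue outside the ganglion stood above every other array, and these were counted first. Such a count misses tissue that several arrays share. On the array labelled ipsilateral 2, 312 Affy_IDs lay at least 2 units above the highest of the other 15 arrays, and they were led by genes of the central nervous system. Mobp, a protein of central myelin, was 14.13 there and at most 3.78 elsewhere, and the oligodendrocyte genes Olig1 and Mog were 11.60 and 11.58, where no other array exceeded 2.17 and 2.46. The water channel Aqp4 of astrocytes was 11.22 against at most 2.71 in one probe set, and 13.33 in a brighter one that was 4.96 to 7.77 on the other 3 arrays of the comparison. Slc32a1 and Slc12a5, the inhibitory vesicle transporter and the chloride exporter of central neurons, were 10.31 and 11.79, with no other array above 2.16 and 1.89. Averaged over 12 oligodendrocyte genes, the level was 9.20 on this array and at most 4.06 on the other 15.

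The array labelled ipsilateral 1 held transcripts of bone and marrow. On it 18 Affy_IDs exceeded every other array by at least 2 units, among them Dmp1, a matrix protein of bone cells (7.87 against at most 2.40), the osteoclast genes Acp5 (9.56 against at most 5.17) and Mmp9 (7.02 against at most 2.58), Prg2 of eosinophils (7.54 against at most 3.11) and the erythroid transcription factor Klf1 (5.29 against at most 2.68). The mean of 9 bone cell genes was 6.56 on this array and at most 4.51 on the rest, and that of 10 granulocyte genes was 6.78 against at most 4.79. The array labelled contralateral 1 held skeletal muscle: 72 Affy_IDs exceeded every other array by at least 2 units, led by the muscle regulator Myf6 (7.90 against at most 3.43) and Smtnl1 (9.16 against at most 4.95). The mean of 7 skeletal muscle genes was 13.49 on contralateral 1, 11.60 on contralateral 2, 11.83 on ipsilateral 1 and 8.84 on ipsilateral 2, beside 8.57 to 11.18 on the sham arrays. On the array labelled contralateral 2 no Affy_ID stood 2 units above the rest, and its largest excess was that of Ucp1, the uncoupling protein of brown fat, at 4.40 against at most 2.44. It was not free of muscle transcripts, since its skeletal muscle mean was above all 3 young sham arrays, though within the adult range (up to 12.48). The muscle actin Acta1 was 13.48 there and at most 12.77 on young sham.

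**Figure D1:**
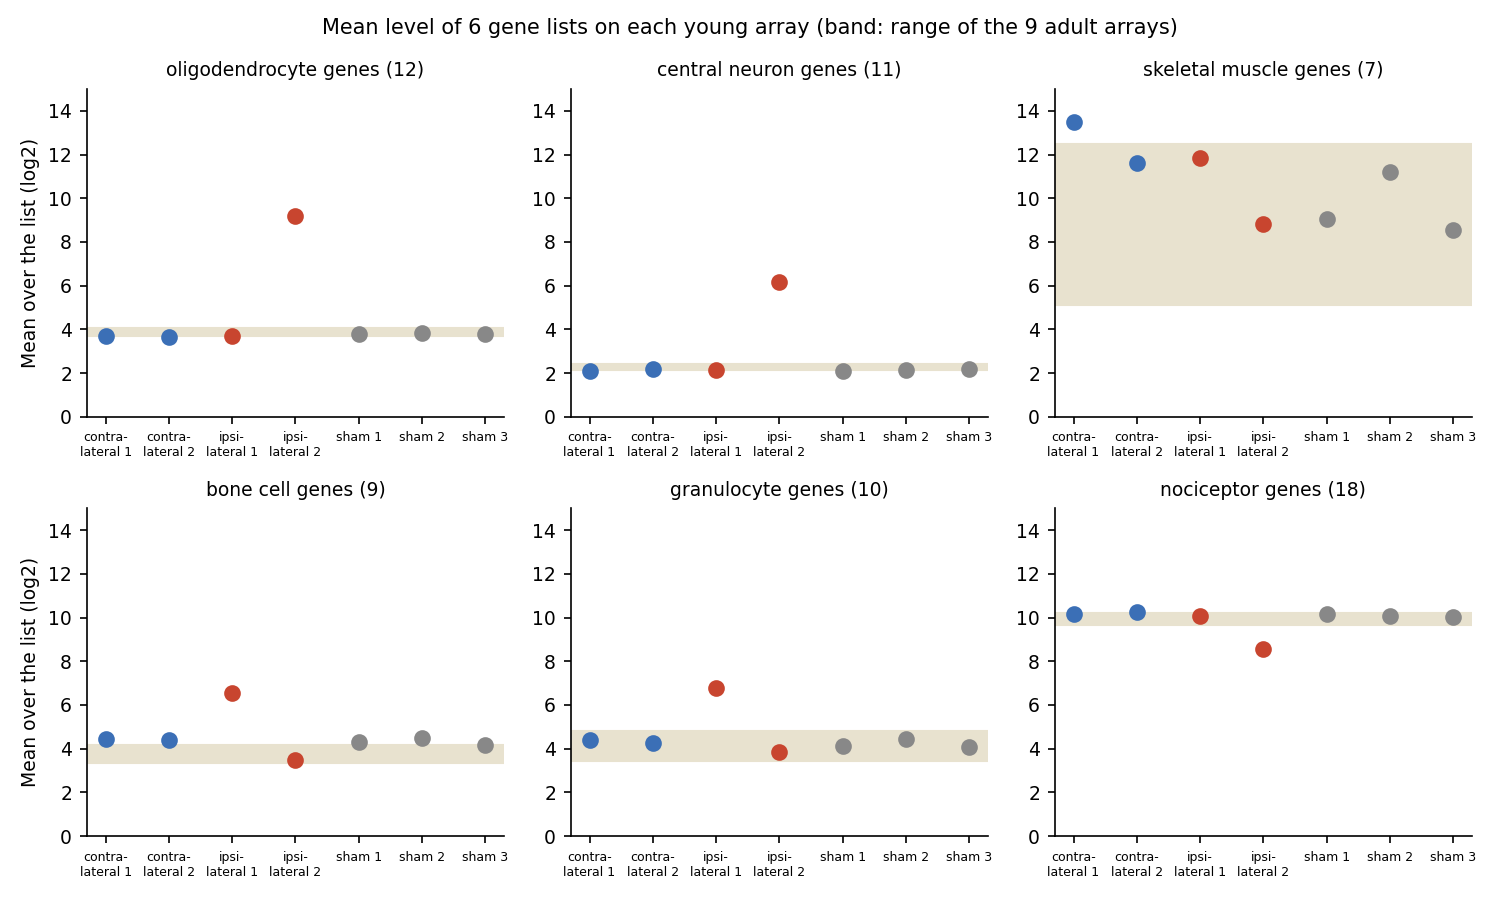
Mean log2 level (vertical axes) of 6 gene lists on each of the 7 young arrays (horizontal axes), with the number of genes measured in brackets and the range of the 9 adult arrays as a band. Oligodendrocyte and central neuron genes were high on ipsilateral 2, bone cell and granulocyte genes on ipsilateral 1 and skeletal muscle genes on contralateral 1, while nociceptor genes were lower on ipsilateral 2 (8.58) than on the other 6 young arrays (10.04 to 10.23).

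The pools also differed in sex-linked transcripts. Xist, the RNA of the inactive X chromosome, was 2.35 on contralateral 1, 11.51 on contralateral 2, and 11.84 and 12.05 on ipsilateral 1 and 2, and the Y-linked gene Eif2s3y was 12.40, 10.03, 10.59 and 8.13 in the same order. By Xist, contralateral 1 was like the male adult arrays (at most 2.57), and the other 3 had high Xist with less Eif2s3y. Another Y-linked gene, Uty, did not follow Eif2s3y. It was 8.07 and 8.33 on contralateral 1 and 2, and 8.83 and 8.68 on ipsilateral 1 and 2, beside 6.93 to 8.19 in adults. The labelled tissue was borne out by its defining transcripts: the peptide precursor Calca was 14.88, 14.90, 14.86 and 13.08, and the neurofilament Nefh 14.88, 14.93, 14.87 and 14.42, on contralateral 1 and 2 and ipsilateral 1 and 2.

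The genes of injured sensory neurons did not order these arrays by side. Atf3 was 9.06 on contralateral 1 and 4.87 on contralateral 2, against 7.77 on ipsilateral 1 and 10.17 on ipsilateral 2. The array labelled contralateral 1 thus lay above ipsilateral 1, and the groups overlapped. The 3 adult ipsilateral arrays were 11.60, 11.81 and 11.72 and the adult contralateral arrays 5.70 to 6.77. Contralateral 2 was thus below every adult contralateral array, and contralateral 1 above them.

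Gal was 12.33 and 7.89 on contralateral 1 and 2, and 11.22 and 12.77 on ipsilateral 1 and 2. Npy was 11.65 and 7.67 against 10.40 and 12.94 in the same order, and Vip 9.28 and 1.87 against 8.02 and 11.29. For all 3 neuropeptides contralateral 1 was above ipsilateral 1, and contralateral 2 was the lowest of the 4. Sprr1a, which promotes axon outgrowth, was 7.56 and 2.22 on the contralateral arrays and 4.30 and 9.57 on the ipsilateral arrays, again with contralateral 1 between the ipsilateral pair. Sox11 was 4.05 and 2.35 against 3.26 and 3.42, and Gap43, which is already abundant in growing sensory neurons, was 13.60 and 13.39 against 13.34 and 13.71.

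None of these 7 genes passed the test (limma, adjusted p from 0.798 for Vip to 1 for Sprr1a, Sox11 and Gap43). The young sham arrays were as high as the ipsilateral ones: Atf3 was 9.49, 11.00 and 7.75, Gal 12.81, 13.84 and 10.71, and Vip 10.03, 11.52 and 8.09. Over the 31 injured neuron genes measured of 32 listed, the mean was 7.61 and 6.34 on contralateral 1 and 2, 7.24 and 8.32 on ipsilateral 1 and 2, and 7.11 to 8.69 on the sham arrays, beside 6.36 to 6.45 in Adult Contralateral and 8.96 to 9.25 in Adult Ipsilateral. In 4 of the 31 both ipsilateral arrays were above both contralateral arrays, and in none below. These were Reg3b, a secreted lectin of the regenerating gene family (7.33 and 3.50 against 7.76 and 9.21), and Crem, Ucn and Tubb6, whose groups were apart by 0.13, 0.06 and 0.01. As background, such separation was seen in 7.67% of all 14217 genes upward and 11.6% downward. The directions below rest on the labels of these arrays.

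**Figure D2:**
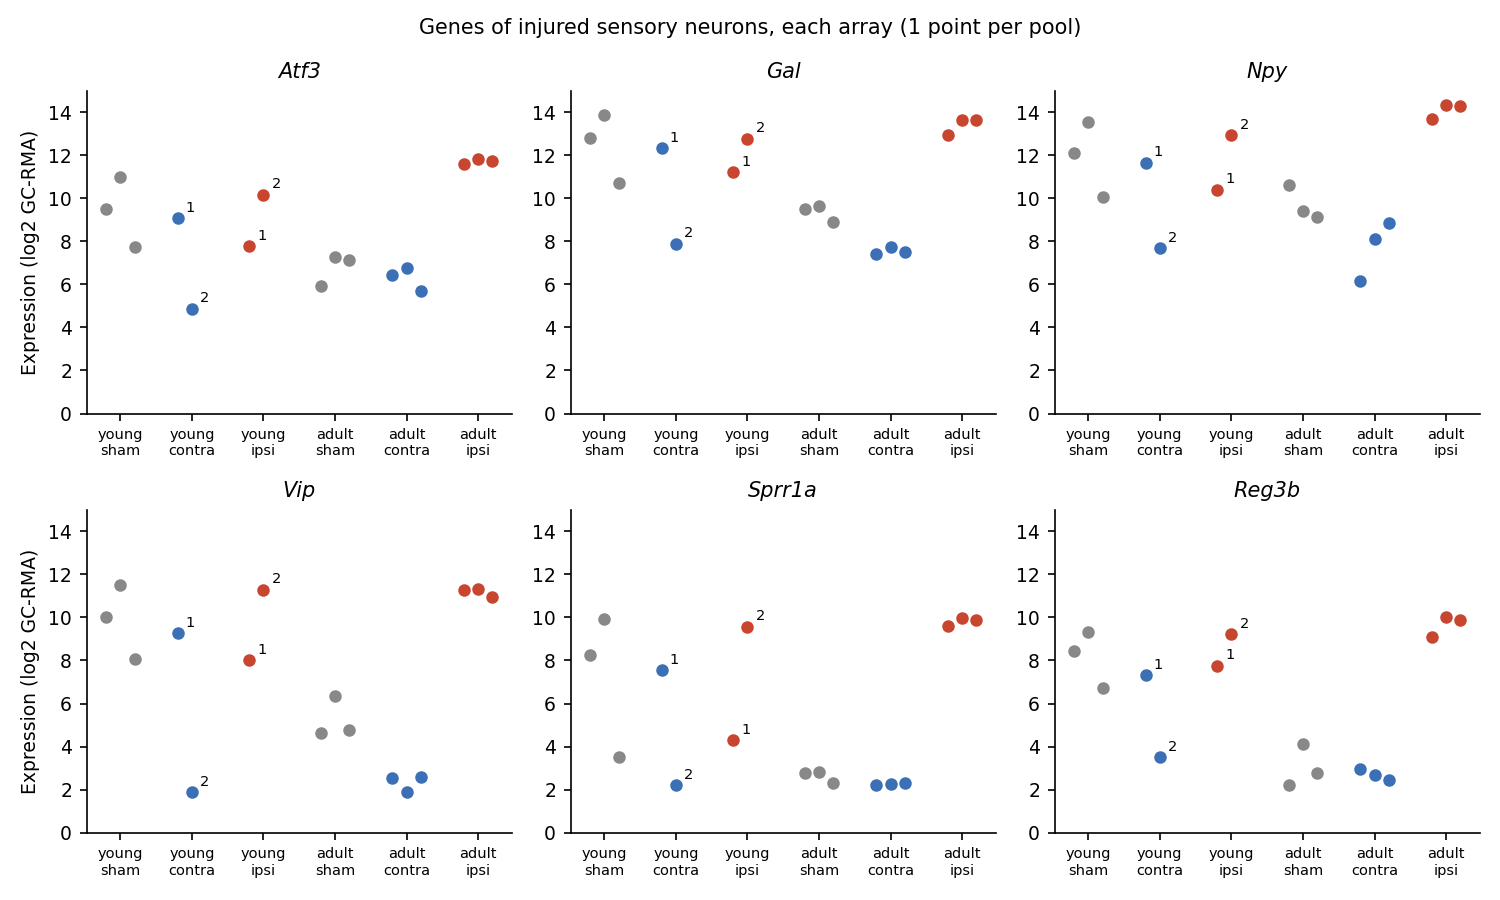
Log2 expression (vertical axes) of 6 genes of injured sensory neurons on each of the 16 arrays, by group (horizontal axes), with young contralateral and ipsilateral arrays numbered. In adults the ipsilateral arrays stood clear of the others, while in the young the array labelled contralateral 1 lay near the ipsilateral and sham arrays and contralateral 2 lay lowest.

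Across all Affy_IDs, 3 passed the limma test at an adjusted p of 0.05, all higher on the injured side, which is 0.00966% of those tested. At an unadjusted p under 0.05 there were 1843, or 5.94%, of which 780 were higher and 1063 lower. The 3 were probe sets for Col11a2, a chain of the fibrillar collagen of cartilage, Ttk, a kinase of the mitotic spindle checkpoint, and Tcf7l2, a transcription factor of the Wnt pathway. Col11a2 was 3.14 and 2.65 on the contralateral arrays and 5.01 and 5.53 on the ipsilateral arrays. Both ipsilateral arrays were clear of every other array of the series, since sham was 2.61 to 3.09 and adult 2.37 to 2.64. The difference was 2.38 (SE 0.20, adjusted p = 0.00363), or 5.19-fold.

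Ttk was 2.64 and 2.78 against 3.72 and 3.66, a difference of 0.98 (SE 0.09, adjusted p = 0.00363). Tcf7l2 was 2.72 and 2.79 against 3.44 and 3.44, a difference of 0.69 (SE 0.06, adjusted p = 0.00363). The sham arrays were 2.51 to 2.70 for Ttk and 2.69 to 2.81 for Tcf7l2, so neither group of controls reached the ipsilateral values, but the levels of both were within about 1 unit of the array's floor. A filter that kept Affy_IDs above 4 in at least 2 arrays retained Col11a2 and removed the other two. Other probe sets of the same genes did not move with them. The second Affy_ID of Ttk was 2.64 and 2.71 against 2.67 and 2.70. The brightest of Tcf7l2 was 7.32 and 7.11 against 7.20 and 8.85, and its remaining 3 were apart by less than 0.1.

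The 3 calls were held when any 1 of the 16 arrays was left out, with differences of 2.12 to 2.63 for Col11a2, 0.91 to 1.05 for Ttk and 0.65 to 0.72 for Tcf7l2 over the 4 young arrays of the comparison. They were lost when the spread was estimated from these 4 arrays alone, or from the young groups alone (0 Affy_IDs passing in each, with 551 and 592 at an unadjusted p under 0.05). With the replicate number as a block within each age, each had an adjusted p of 0.07 (limma). Col11a2 was read beside other cartilage genes, because ipsilateral 1 held skeletal transcripts. Its partner chain Col11a1 was 9.53 on ipsilateral 1 and 7.46 to 7.74 on the other 3 arrays. Col10a1, of growth plate cartilage, was 9.18 on ipsilateral 1, 2.09 on ipsilateral 2, and 3.63 and 5.97 on contralateral 1 and 2. On ipsilateral 2, where Col11a2 was highest, Col10a1 was the lowest of the 4 arrays and Col11a1 was 7.50. The part of skeletal or central tissue in the Col11a2 difference was not tested.

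**Figure D3:**
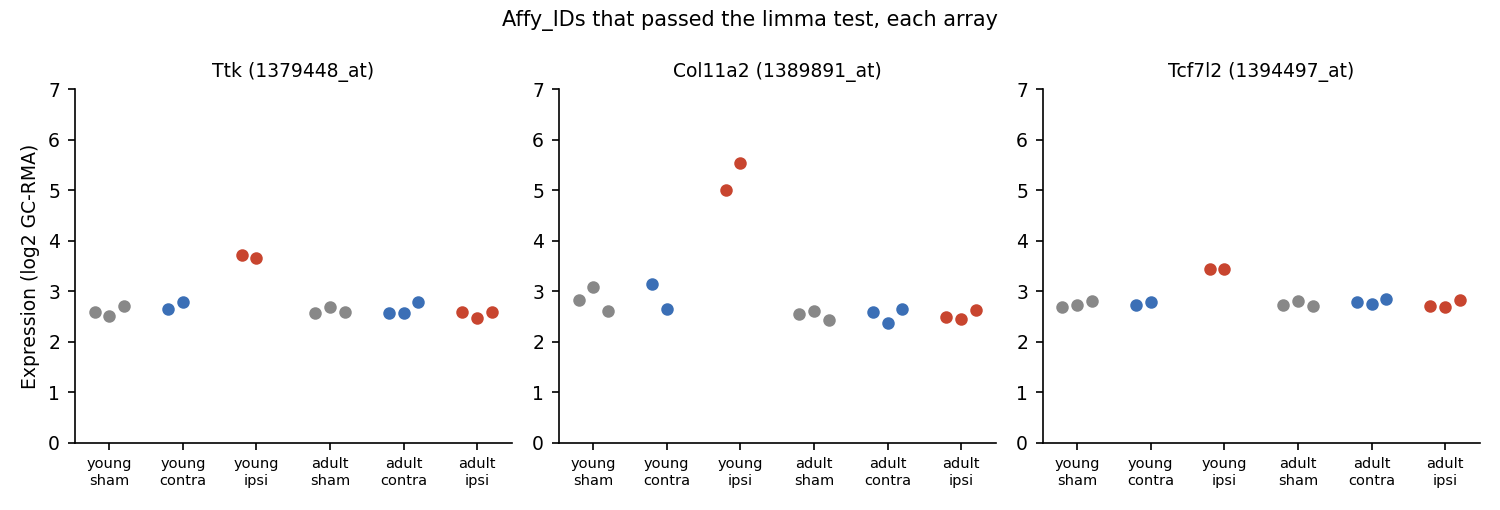
Log2 expression (vertical axes) of the 3 Affy_IDs that passed the limma test on each of the 16 arrays, by group (horizontal axes). The 2 young ipsilateral arrays were above the other 14 for each, at 5.01 and 5.53 for Col11a2, 3.72 and 3.66 for Ttk and 3.44 and 3.44 for Tcf7l2.

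How many Affy_IDs passed depended on which young array was left out. Without ipsilateral 1, so that ipsilateral 2 stood alone for the injured side, 3341 passed (10.8%): 1460 were higher (4.7%) and 1881 lower (6.06%), and for 1192 and 1129 of them ipsilateral 1 overlapped the contralateral arrays or lay on the other side. Without ipsilateral 2, 44 passed (0.142%), 43 of them higher (0.139%) and 1 lower (0.00322%). The 10 largest with a gene symbol were probe sets of Dmp1, Prg2, Mmp9 (2 of them), Acp5, Car1, Camp, Tal1, Fcnb and Klf1, all high on ipsilateral 1. On ipsilateral 2, Acp5 (3.81 against 4.72 and 4.55) and Tal1 (2.89 against 3.51 and 3.49) were below both contralateral arrays. Dmp1, for example, was 2.30 and 2.32 on the contralateral arrays, 7.87 on ipsilateral 1 and 2.32 on ipsilateral 2. Without contralateral 2, 158 passed (0.509%). Of these 7 were higher (0.0226%) and 151 lower (0.486%) on the injured side, and for 76 of the 151 contralateral 2 overlapped the ipsilateral arrays. Without contralateral 1, 16 passed (0.0515%), 4 higher (0.0129%) and 12 lower (0.0387%).

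Genes in which both ipsilateral arrays stood apart from both contralateral arrays were therefore described by their gap, the distance between the nearest arrays of the 2 groups. A gap of at least 0.5 was found upward in 74 of 14217 genes (0.521%) and downward in 33 (0.232%). Of the 74, 14 belonged to the macrophage and MHC class II lists. For 48 of the 74, at least 1 of the 3 young sham arrays was at or above the lower ipsilateral array, and for 29 of the 33 downward genes a sham array was at or below the higher ipsilateral array. The 33 held 2 of 12 slow muscle genes, Myf6 and Cav3, and 0 of the 7 skeletal muscle genes. The slow muscle mean was 9.76 and 5.02 on contralateral 1 and 2, 5.84 and 3.22 on ipsilateral 1 and 2, and 3.43 to 4.12 on sham. The part of muscle tissue in the downward genes was not tested.

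MHC class II genes had the largest share of members with such a gap among the 31 lists. RT1-Ba, an alpha chain, was 7.97 and 5.51 on contralateral 1 and 2, and 9.64 and 10.44 on ipsilateral 1 and 2, a difference of 3.30 (SE 0.68, adjusted p = 0.634, limma). RT1-Da, the alpha chain of the other class II molecule, was 10.05 and 7.27 against 11.01 and 11.65. RT1-Db1, a beta chain, was 8.59 and 6.12 against 9.29 and 9.60. In each of these genes the ipsilateral arrays were above the contralateral ones, and contralateral 2 was the lowest array of the 4 by over 2 units. RT1-DMa and RT1-DMb, which load peptide, were 4.15 and 2.76 against 4.83 and 6.19, and 5.52 and 4.06 against 6.17 and 7.76. Cd74, the invariant chain, was 10.94 and 8.45 against 11.46 and 11.79.

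Of the 8 class II genes, all measured, 6 had a gap of at least 0.5 and 0 passed the limma test in either direction. Their median difference was 2.07, beside -0.01 over all genes. RT1-Bb overlapped (7.35 and 3.44 against 5.80 and 8.46), and the class II regulator Ciita was near the floor (2.67 and 2.67 against 2.66 and 3.63). The count was 6 to 8 with any 1 of the 4 arrays left out, while the share of all genes with such a gap ranged from 1.3% to 8.98%. The young sham arrays, however, were at the ipsilateral level: RT1-Ba was 10.18, 10.60 and 9.53 and RT1-Da 11.95, 11.87 and 10.64. The mean of the 8 was 7.16 and 5.04 on contralateral 1 and 2, 7.61 and 8.69 on ipsilateral 1 and 2, and 7.54 to 8.71 on sham, and it reached 8.71 to 9.78 in Adult Ipsilateral against 6.47 to 6.61 in Adult Contralateral. The RT1 genes are a family of close copies, so probes for one may have bound transcripts of another.

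Class II genes are switched on together through shared promoter elements, known as the X and Y boxes, and the promoters of 4 of the genes with a gap are printed to show them. The sequences are RefSeq's (GRCr8), from 250 bases before to 50 after the start of the gene, 5′ to 3′ on the gene's own strand: RT1-Ba at chr20:4576807-4577106 (plus strand), RT1-Da at chr20:4515165-4515464 (plus), RT1-Db1 at chr20:4560113-4560412 (minus) and RT1-DMa at chr20:4712286-4712585 (minus). Capitals mark a match to GCNACNG, within the X box, followed by a match to TGATTGG, the core of the Y box.
RT1-Ba: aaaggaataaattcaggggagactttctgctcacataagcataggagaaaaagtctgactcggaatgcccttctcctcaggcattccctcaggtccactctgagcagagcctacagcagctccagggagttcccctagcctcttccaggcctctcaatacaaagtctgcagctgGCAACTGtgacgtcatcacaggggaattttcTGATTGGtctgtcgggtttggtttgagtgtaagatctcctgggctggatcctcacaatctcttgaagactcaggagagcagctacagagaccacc
RT1-Da: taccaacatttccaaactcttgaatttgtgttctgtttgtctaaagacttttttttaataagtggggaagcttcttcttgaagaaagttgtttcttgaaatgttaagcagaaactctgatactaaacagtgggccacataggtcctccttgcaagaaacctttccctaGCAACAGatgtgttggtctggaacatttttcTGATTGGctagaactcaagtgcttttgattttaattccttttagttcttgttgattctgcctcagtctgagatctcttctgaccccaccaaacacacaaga
RT1-Db1: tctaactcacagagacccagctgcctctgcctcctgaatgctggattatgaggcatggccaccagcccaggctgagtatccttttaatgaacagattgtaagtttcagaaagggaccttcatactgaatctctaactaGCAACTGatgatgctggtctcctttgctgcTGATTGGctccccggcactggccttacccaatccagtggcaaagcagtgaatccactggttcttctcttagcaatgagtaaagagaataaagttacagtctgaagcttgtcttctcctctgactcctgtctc
RT1-DMa: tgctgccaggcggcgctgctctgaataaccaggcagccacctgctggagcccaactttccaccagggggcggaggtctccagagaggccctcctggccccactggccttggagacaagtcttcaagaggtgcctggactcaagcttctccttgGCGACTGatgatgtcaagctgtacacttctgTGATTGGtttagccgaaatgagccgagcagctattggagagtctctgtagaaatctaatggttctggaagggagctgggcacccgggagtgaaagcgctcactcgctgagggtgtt
The 2 matches were separated by 24 bases in RT1-Ba, RT1-Da and RT1-DMa and by 23 in RT1-Db1, and the second began 45, 51, 66 and 82 bases before the start in RT1-Ba, RT1-Da, RT1-DMa and RT1-Db1. These letters were chosen after the sequences had been read. On either strand GCNACNG was present in 41% of 33469 promoters and TGATTGG in 7.06%, and the pair in this order with 20 to 28 bases between was present in 38, or 0.114%. Of the 8 class II genes, 6 were in the promoter table and 4 had the pair. Cd74, which had a gap, had neither match on either strand. RT1-Bb, whose groups overlapped, had both matches but not in that order and spacing.

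The macrophage genes gave a like pattern with smaller differences. Cybb, the catalytic subunit of the phagocyte oxidase, was 5.98 and 4.19 on contralateral 1 and 2, and 7.28 and 7.72 on ipsilateral 1 and 2, a difference of 2.42 (SE 0.61, adjusted p = 0.798, limma). Csf1r, the receptor that keeps macrophages alive, was 8.56 and 7.09 against 9.11 and 10.34. The lysozyme Lyz2 was 11.23 and 10.59 against 11.96 and 12.02. None of these groups overlapped, and contralateral 2 was again the lowest. Of the 24 macrophage genes, all measured, 14 were higher on both ipsilateral arrays (7.67% of all genes were) and 0 were lower, 8 had a gap of at least 0.5, and 0 passed the limma test. The other 5 of the 8 were Laptm5, Ptprc, Clec7a, Tyrobp and Adgre1, with gaps of 1.03, 0.91, 0.84, 0.81 and 0.71.

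The median difference over the list was 1.16. It was not uniform, since Ctss was 8.97 and 8.19 against 8.82 and 11.64, Mrc1 was 8.59 and 7.04 against 8.57 and 8.54, and Lgals3 was 11.88 and 11.74 against 11.85 and 11.06. The list mean was 5.78 and 5.10 on contralateral 1 and 2, 6.19 and 6.82 on ipsilateral 1 and 2, and 5.78 to 6.59 on sham. Central tissue holds microglia and marrow holds myeloid cells, both of which express these genes, so the values of the foreign lists above stand beside this result, and their part in it was not tested. With 1 array left out, 14 members had such a gap upward without ipsilateral 1 (8.98% of all genes did) and 14 without contralateral 1 (2.34%). There were 9 without ipsilateral 2 (1.85% of all genes) and 9 without contralateral 2 (1.3%). Without ipsilateral 1, 1 member had such a gap downward.

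**Figure D4:**
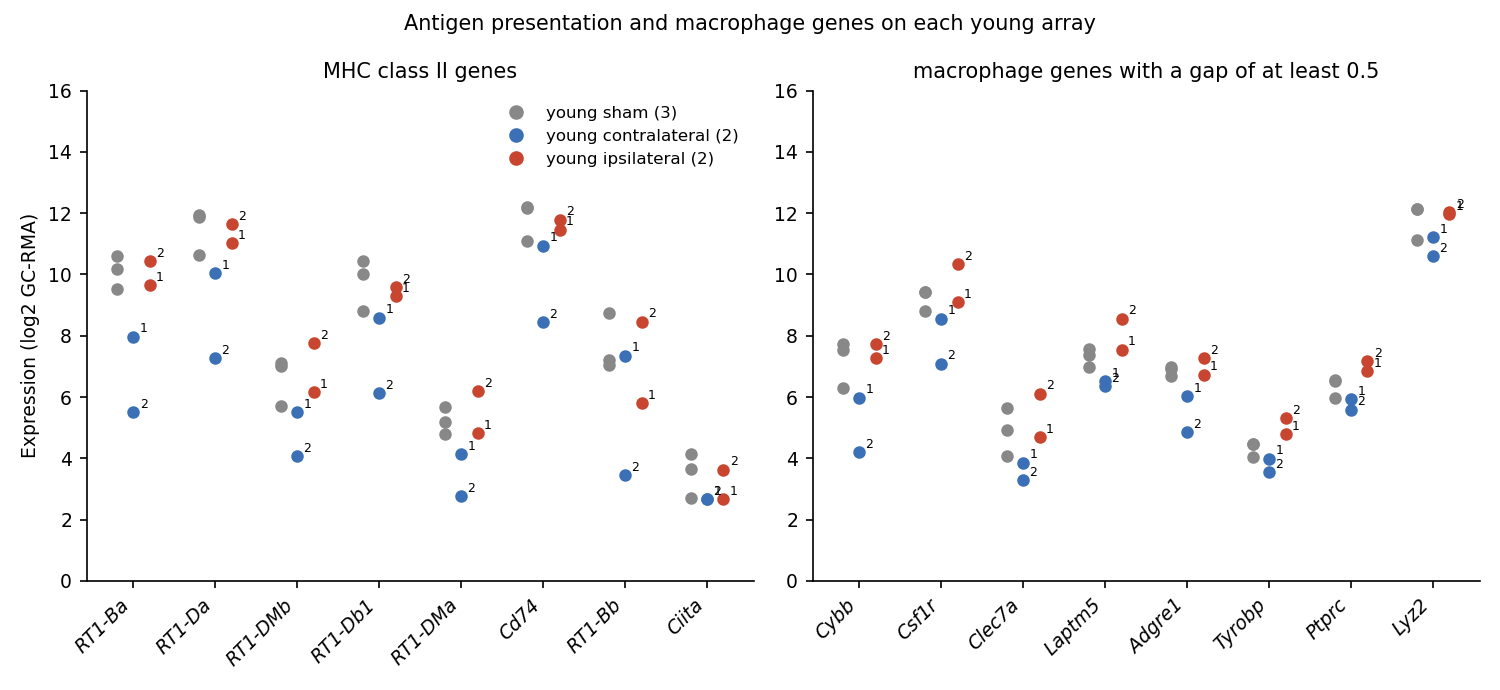
Log2 expression (vertical axes) of the 8 MHC class II genes and of the 8 macrophage genes with a gap of at least 0.5 (horizontal axes), with 1 point per young array and contralateral and ipsilateral arrays numbered. Ipsilateral points lay above contralateral points for 6 class II genes and, by selection, for the 8 macrophage genes, and sham points lay mostly at the ipsilateral level.

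Among other immune genes, C3, the central complement component and 1 of the 16 Affy_IDs the study selected for qPCR, was 3.53 and 2.27 on the contralateral arrays and 4.45 and 5.94 on the ipsilateral arrays, with sham at 4.42, 5.28 and 3.66. The groups did not overlap (gap 0.92, difference 2.29, SE 0.79, adjusted p = 0.798). Of 11 complement genes measured of 16 listed, 4 were higher on both ipsilateral arrays and 1, the inhibitor Cd55, was lower. Over all genes 7.67% were higher on both and 11.6% lower. C1qa and C1qb, among the 4, are in the macrophage list too. Of 20 interferon response genes, 6 were higher on both (7.67% of all genes were), and the list's median difference was 0.27. The 6 were led by the antiviral GTPase Mx2 (8.10 and 8.20 on the ipsilateral arrays and at most 6.95 on the contralateral ones, with sham at 9.21, 9.32 and 6.27). Of 24 chemokine and cytokine genes 5 were higher on both, beside 7.67% of all genes. Their gaps were at most 0.20 (Cxcl12), and the list's median difference was 0.02. The 9 lymphocyte genes measured stayed near the floor, with means of 2.58 to 2.66 on the 4 arrays.

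Of the 16 Affy_IDs selected for qPCR, 0 passed in this comparison, and several were at the floor of the array. Serpina3n, a protease inhibitor of the acute phase, was 1.83 and 1.87 against 1.85 and 1.87, and Il6 was 2.35 and 2.39 against 2.37 and 2.39. Serpinb2 and Mmp3 were likewise at the floor, at 2.27 and 2.34 against 2.31 and 2.35, and 2.00 and 2.05 against 2.02 and 2.05. The chemokine Ccl2 was 8.87 and 9.28 against 9.33 and 8.37, and the macrophage growth factor Csf1 was 3.44 and 2.75 against 3.23 and 5.10. The metalloproteinase Mmp16 was 7.19 and 6.43 against 6.90 and 7.97, so the groups overlapped for all 3. Besides C3, the nucleotide sugar receptor P2ry14 (3.29 and 3.03 against 3.44 and 3.43), the kinase Itpkc (6.33 and 6.44 against 6.51 and 6.53) and the transcription factor Crem (6.29 and 6.70 against 6.74 and 6.92) were higher on both ipsilateral arrays, with gaps of 0.14, 0.07 and 0.04. The kinase Map2k6 was slightly lower on both ipsilateral arrays (9.31 and 9.17 against 9.07 and 9.01, gap 0.10).

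Nociceptor genes were lower on ipsilateral 2 and near the contralateral levels on ipsilateral 1. Trpv1, the capsaicin receptor, was 10.31 and 10.66 on contralateral 1 and 2, 10.29 on ipsilateral 1 and 7.87 on ipsilateral 2. The sodium channel Scn10a was 11.02 and 11.06, 11.13 and 8.06 in the same order. Ipsilateral 1 was within 0.4 units of both contralateral arrays in each case, and ipsilateral 2 was lower by over 2 units. Over the 18 nociceptor genes measured of 21, the median of ipsilateral 1 minus contralateral 1 and 2 was -0.05 and -0.12, and that of ipsilateral 2 was -1.71 and -1.76, while the oligodendrocyte genes were 5.89 and 6.01 higher on ipsilateral 2. Of the 18, 9 were lower on both ipsilateral arrays (11.6% of all genes were), 0 were higher and 0 passed.

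The widest gap among nociceptor genes was that of Trpm8, the cold and menthol receptor, at 7.77 and 7.88 on the contralateral arrays and 6.90 and 5.10 on the ipsilateral arrays. It was lower on both, with a gap of 0.87, but 1 sham array was at 6.89, and the difference of -1.82 did not pass (SE 0.53, adjusted p = 0.798). The potassium channel subunits Kcna4 (7.44 and 7.44 against 7.08 and 5.28) and Kcnd3 (9.92 and 10.09 against 9.64 and 8.18) were lower on both with gaps of 0.36 and 0.28. Of 11 GABA and glycine receptor genes, 2 were lower on both, Gabbr2 and Gabra2, with gaps of 0.30 and 0.25. Another, Gabra5, was higher (7.84 and 7.73 against 7.90 and 9.75), and the list's median difference was 0.07. Over all genes 11.6% were lower on both and 7.67% higher. Of 18 potassium channel genes 5 were lower on both arrays, and of 12 sodium channel genes 5, beside 11.6% of all genes. The gaps of these sodium channel genes were at most 0.42 (Scn8a), and Scn9a and Scn11a among them are in the nociceptor list too. The neurofilament genes differed little (Nefl 15.25 and 15.35 against 15.18 and 14.84).

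Satellite glia genes were split in the same manner, with median differences of 0.03 and 0.07 for ipsilateral 1 and 1.22 and 1.16 for ipsilateral 2. Astrocytes share several of them, such as the glutamate transporter Slc1a3 (7.15 and 6.77 against 7.20 and 11.51). Peripheral myelin genes had median differences of -0.03 and 0.22 for ipsilateral 1 and of -0.80 and -0.26 for ipsilateral 2. Cell cycle genes were higher on ipsilateral 1, by a median of 0.66 and 0.43, than on ipsilateral 2, by 0.09 and -0.01. Of the 30 measured, 8 were higher on both, beside 7.67% of all genes. Among them were Mcm5 (3.80 and 4.35 against 5.20 and 6.02, with sham at 4.41 to 5.98) and Mcm2 (5.16 and 5.18 against 5.93 and 5.49, with sham at 5.38 to 5.99), which license DNA replication. Marrow divides actively, and the bone and marrow genes were high on the same array; their part was not tested. Of 8 endothelial genes 4 were higher on both, beside 7.67% of all genes. They included Vwf (5.81 and 5.53 against 6.50 and 7.20, with sham at 6.44 to 6.54) and Tie1 (5.60 and 5.58 against 6.11 and 6.40, with sham at 5.93 to 6.07). Collagen and other matrix genes had median differences of 0.01 and 0.00, although elastin, Eln, was lower on both ipsilateral arrays (9.32 and 9.57 against 8.31 and 8.24, with sham at 8.20, 9.14 and 7.87).

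Of 12 immediate early and heat shock genes 4 were higher on both ipsilateral arrays and 1 lower, beside 7.67% and 11.6% of all genes. The 4 were led by Ier2 (5.50 and 5.72 against 6.48 and 7.02, with sham at 5.25 to 6.62) and the transcription factor Egr1 (7.63 and 8.07 against 8.56 and 9.31, with sham at 7.67 to 8.46). Of 31 Wnt pathway genes 3 were higher, among them the receptor Fzd2 with a gap of 0.46, and 1 lower, where 7.67% and 11.6% of all genes were, and their median difference was -0.03. Cholesterol synthesis genes (3 of 13 higher, median 0.04) and mural cell genes (1 of 7 higher and 1 lower, median -0.40) showed no member past a gap of 0.12. Blood genes, which include the neutrophil gene S100a9 (10.38 and 9.79 against 12.64 and 8.37), were high on ipsilateral 1 and had no separated member among the 5 measured.

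The widest downward gaps among Affy_IDs above 6 on the contralateral arrays were those of Ank2, an anchor of membrane channels (7.50 and 7.23 against 5.80 and 5.47), and Syt2, a calcium sensor of transmitter release (6.80 and 6.32 against 4.97 and 3.92). The groups were apart by 1.43 and 1.35, but 2 of the 3 sham arrays were at 5.59 and 5.62 for Ank2 and 1 was at 3.00 for Syt2. Cpt1b, the muscle form of an enzyme for fatty acid entry into mitochondria, was 9.42 and 7.00 against 5.95 and 5.82 (gap 1.05), with sham at 4.87 to 5.72. Fam168b, Apba1, Epm2aip1, Prkaa1, Lifr and Pkia followed, with gaps of 1.22, 1.11, 0.95, 0.90, 0.90 and 0.89. None passed the test.

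**Figure D5:**
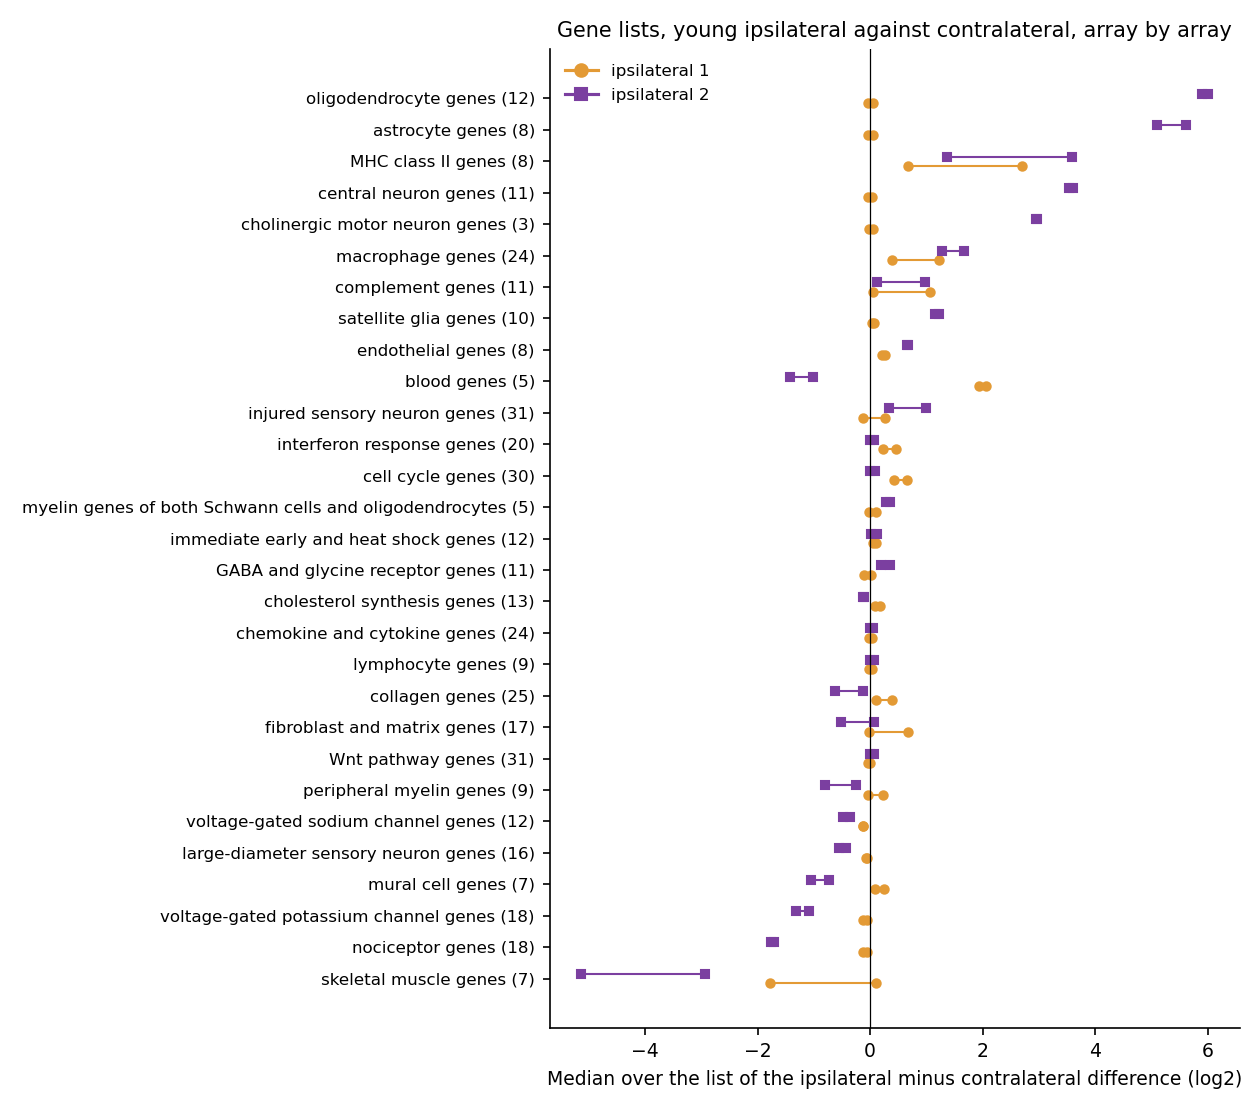
Median over each gene list of the log2 difference between 1 ipsilateral array and each contralateral array (horizontal axis), with the lists ordered by their difference between group means (vertical axis) and the number of genes measured in brackets. Ipsilateral 2 was far from 0 for the central nervous, nociceptor and muscle lists, where ipsilateral 1 was mostly near 0. The MHC class II and macrophage lists were above 0 for all 4 pairs, by at least 0.67 and 0.39. So were the endothelial, complement, satellite glia and immediate early lists, by at least 0.21, 0.05, 0.03 and 0.01.

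The same contrast in adults gave the nearest comparison, and the difference between the 2 responses was tested as an interaction. It passed for 6 Affy_IDs (0.0193%). In 3 the adult response exceeded the young one: Serpina3n, which was 8.50 to 9.63 on the Adult Ipsilateral arrays and at most 1.91 on every other array, and Serpinb2 and Ms4a6a, a membrane protein of myeloid cells, which were at most 2.41 and 2.95 off those 3 arrays. The remaining 3 were the young calls Col11a2, Ttk and Tcf7l2, whose adult ipsilateral and contralateral arrays were 2.37 to 2.85. The injury genes named above were not among them, and their failure to pass does not show that the responses were alike.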

How the data were processed

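Total RNA from pooled L4/L5 ganglia was labelled and hybridised by the authors to Affymetrix rat expression arrays, and the deposited values are log2 expression after GC-RMA, per the labels, whose processing notes also name limma. GC-RMA normalises probes over the arrays, so values are relative within the series and carry no absolute amount of RNA. Depth has no meaning for arrays, and the number of arrays limits the precision.

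The 57 control probe sets were dropped, and 31042 Affy_IDs were tested with limma 3.58.1 (R 4.3.3; lmFit, contrasts.fit and eBayes, 6 group means over 16 arrays, Benjamini-Hochberg over all Affy_IDs). With 2 pools a group, the other groups supplied most of the estimate of spread, and p-values measure the spread between pools, which the labels call biological replicates. The code was tested on simulated data. The array's annotation gave 1 gene for 20826 Affy_IDs, several for 436 and none for 9780, and 20758 matched RefSeq by Entrez ID. In lists, each gene was read from the Affy_ID with the highest mean.

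The comparison, the 31 gene lists and the rule for named genes were chosen with earlier results of these data known, and 6 lists of bone, cartilage, marrow and muscle were added after the arrays had been seen. Named were the Affy_IDs that passed, the 10 widest gaps each way among those above 6, up to 6 separated members of each list with 7 injury genes, the 16 Affy_IDs selected for qPCR, the 10 largest excesses of ipsilateral 2, the 10 largest calls without it, and the interaction calls. Other members of lists, and genes with high values on 1 array, were chosen after their values were seen. No column was left unmapped. Whether equal replicate numbers pair the young arrays could not be judged from 2 pairs (the correlation of deviations was 0.151).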

Additional observations from a re-analysis of the deposited data

Results flagged for a closer look

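The response to SNI differed between adults and the young for 6 Affy_IDs, by a test of the difference itself (limma interaction, adult difference minus young difference, ipsilateral minus contralateral on the log2 scale). Serpina3n had a difference of 7.16 (SE 0.31, adjusted p = 2.8e-06), from 7.17 in adults and 0.01 in the young. Serpinb2 had 4.14 (SE 0.49, adjusted p = 0.0155), from 4.17 and 0.03. Ms4a6a had 3.08 (SE 0.28, adjusted p = 0.00353), from 3.14 and 0.07. In these 3 genes each of the 3 adult ipsilateral arrays lay above the other 13 arrays. Col11a2 had -2.38 (SE 0.26, adjusted p = 0.0133), from -0.01 in adults and 2.38 in the young. Ttk had -1.08 (SE 0.12, adjusted p = 0.0133) and Tcf7l2 had -0.74 (SE 0.08, adjusted p = 0.0135), both from young differences at levels under 4. Groups of 2 or 3 arrays are too small for a test for single outlying arrays. Fits with 1 array left out are given in the next section.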

How the results depend on the processing

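The 3 Affy_IDs that passed in the young comparison became 0 with each age fitted on its own, 0 with the 4 arrays on their own, 1 with the filter on low values, 10 when adjusted over 4 comparisons together and 1, a different one, with the replicate number as a block within each age (an alternative chosen after seeing the data). With the replicate number as a block over all groups, 3 passed, and the interaction gave 4. Whether equal numbers pair the arrays could not be judged from 2 pairs. With 1 array left out, 3 to 3341 passed; the arrays that moved the count by over 1.5 times were Adult Ipsilateral replicate 3 (5), Young Contralateral replicate 1 (16) and 2 (158), and Young Ipsilateral replicate 1 (3341) and 2 (44). The 6 interaction calls became 11 with quantile normalization and 2 with the block within each age, and 3 to 2337 with 1 array left out: 3 when Adult Contralateral replicate 1 was dropped, 36 and 14 for Adult Ipsilateral replicate 1 and 3, 13 for Young Sham replicate 2, 10 and 106 for Young Contralateral replicate 1 and 2, and 2337 and 46 for Young Ipsilateral replicate 1 and 2. The cause was not tested. Over the 156 Affy_IDs that the rule named, the young difference changed sign in 34 of 4172 values under the alternatives, none of them for one that had passed. With quantile normalization it was -0.00 for Serpina3n and Mmp3, -0.01 for Il6 and Tlr4 and 0.11 for Maoa. With 1 array left out, the injury genes ranged from -0.09 to 4.10 for Atf3, -0.34 to 4.11 for Gal, -0.62 to 4.71 for Sprr1a, -0.71 to 0.99 for Sox11 and -0.15 to 0.21 for Gap43. Among those selected for qPCR, Ccl2 ranged from -0.70 to 0.26, Clic1 from -0.45 to 0.14, Maoa from -0.15 to 0.07, an unnamed one from -0.02 to 0.31, and Serpina3n, Il6, Tlr4, Mmp3 and Serpinb2 from -0.01 to at most 0.03, 0.03, 0.03, 0.04 and 0.06. Genes that were high on 1 ipsilateral array lost that difference without it. The Affy_IDs of Mobp ranged from 0.00 to 11.14, from 0.00 to 10.47 and from -0.02 to 11.37. Slc12a5 ranged from -0.01 to 9.96, Mog from -0.01 to 9.24 and Aqp4 from -0.12 to 8.63. Prg2 ranged from -0.03 to 5.13, Acp5 from -0.82 to 4.92, Camp from -0.28 to 3.84 and Tal1 from -0.61 to 3.18. The lowest value was without Young Contralateral replicate 2 for Atf3, Gal, Sprr1a and Sox11. Intensity trend, robust prior, array weights and 1 Affy_ID for each gene gave 2 to 4 calls in the young comparison.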
